A study of Mus musculus with 18 samples.

Results

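Messages of 9 red blood cell genes were followed in bulk RNA-seq of mouse hearts: the 4 adult globin genes Hbb-bs, Hbb-bt, Hba-a1 and Hba-a2, the heme enzyme gene Alas2, the anion exchanger gene Slc4a1, and the genes Bpgm, Fam46c and Car2. They were picked by name and are 9 of the 12988 genes in the table used. Their high level in the day 3 infarcts that received the control vector was known when they were picked. Earlier results on red cell genes in the day 14 control-vector infarcts were known too. Levels in the control-vector and sham hearts are therefore described here with no test. Newborn mice were injected under the skin with adeno-associated virus of serotype 9 that carried mouse Fgf17, a secreted growth factor, or with its control vector. At 8 weeks of age the left anterior descending coronary artery was tied for good, which gives a myocardial infarction (MI), or was not tied in a sham operation. The 18 libraries form 5 groups: 4 sham hearts with the control vector, 4 MI hearts at day 3 with the control vector, 4 MI hearts at day 3 with FGF17, 3 MI hearts at day 14 with the control vector and 3 MI hearts at day 14 with FGF17. No sham group with FGF17 and no day for the sham hearts is given in the labels. The labels name no strain, sex or promoter of the vector and do not say whether the libraries of a group are separate animals, so the p-values measure the spread between these libraries, which may be technical. Fgf17 itself was at 45.3 FPKM or more in all 7 libraries labelled FGF17 and at 0.380 FPKM or less in the other 11.

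Adult hemoglobin is built from alpha and beta globin chains, each holding a heme. Red cell precursors switch on the globin genes together with the genes for heme, and mouse reticulocytes, the youngest red cells in the blood, still carry these messages after the nucleus is lost. RNA from a solid organ also holds the messages of the blood in its vessels. In whole-tissue RNA, fewer cells of a type and less RNA per cell cannot be told apart.

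In the GRCm38 mouse genome the table places Hbb-bs at chr7:103826534-103828096 and Hbb-bt at chr7:103812524-103813996, both on the minus strand and 12538 bases apart. Hba-a1 lies at chr11:32283511-32284465 and Hba-a2 at chr11:32296489-32297298, both on the plus strand and 12024 bases apart. Alas2 lies on the X chromosome at chrX:150547375-150570638. Slc4a1 is at chr11:102348824-102366203, Bpgm at chr6:34476207-34505613, Fam46c at chr3:100451628-100489324 and Car2 at chr3:14886273-14900770. All 9 are protein-coding, with 3 exons in the longest annotated transcript of each globin gene, 11 in Alas2, 20 in Slc4a1, 3 in Bpgm, 2 in Fam46c and 7 in Car2. Fam46c is the older name of Tent5c, a poly(A) polymerase.

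The start regions of the globin genes and of Alas2 are shown because these genes moved together across the libraries (values below). Each line holds the 250 bases upstream of the RefSeq start in GRCm38.p6, 5′ to 3′ on the gene's strand. Capitals mark 4 short motifs on either strand: GATAA, the core of a site for GATA factors; CACCC, the core read by KLF proteins; CCAAT, a box found in many promoters; and TATAA, the core of a TATA box. The windows are chr7:103827929-103828178 for Hbb-bs, chr7:103813924-103814173 for Hbb-bt, chr11:32283422-32283671 for Hba-a1 and chrX:150547167-150547416 for Alas2. The gene starts in the expression table lie inside these windows, since its annotation begins farther upstream than RefSeq's.
Hbb-bs: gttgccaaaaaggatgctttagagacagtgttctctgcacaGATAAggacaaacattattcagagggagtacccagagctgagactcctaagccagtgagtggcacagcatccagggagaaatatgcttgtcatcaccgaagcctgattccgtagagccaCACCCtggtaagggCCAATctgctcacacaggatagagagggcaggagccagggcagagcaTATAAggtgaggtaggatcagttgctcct
Hbb-bt: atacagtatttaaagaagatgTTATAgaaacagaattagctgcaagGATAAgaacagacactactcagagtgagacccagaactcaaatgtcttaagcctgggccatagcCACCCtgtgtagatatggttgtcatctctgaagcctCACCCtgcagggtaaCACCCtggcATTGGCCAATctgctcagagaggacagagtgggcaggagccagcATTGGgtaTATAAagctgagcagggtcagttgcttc
Hba-a1: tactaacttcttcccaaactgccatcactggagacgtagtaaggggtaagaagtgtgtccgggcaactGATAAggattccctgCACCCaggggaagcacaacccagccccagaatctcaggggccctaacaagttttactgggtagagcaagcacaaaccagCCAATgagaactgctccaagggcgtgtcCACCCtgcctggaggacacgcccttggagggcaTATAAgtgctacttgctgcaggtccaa
Alas2: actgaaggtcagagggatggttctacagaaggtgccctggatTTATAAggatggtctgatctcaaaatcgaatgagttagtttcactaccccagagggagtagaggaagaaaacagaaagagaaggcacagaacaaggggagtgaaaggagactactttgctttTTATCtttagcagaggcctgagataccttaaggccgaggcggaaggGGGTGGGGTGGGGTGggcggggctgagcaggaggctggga

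All 4 motifs occurred in the windows of Hbb-bs, Hbb-bt, Hba-a1 and Hba-a2. In Hbb-bs the first letters of the GATA core, the CACCC core, the CCAAT box and the TATA core stood at -209, -90, -76 and -29 from the start, and in Hba-a1 the TATA core stood at -27. The Hba-a2 window was not printed because 247 of its bases are identical in one run to Hba-a1, while Hbb-bs and Hbb-bt shared 182 of 242 aligned bases (75.2%). Alas2 held the GATA core, the CACCC core at 3 places and the TATA core on both strands, the last 2 overlapping, but no CCAAT box. Bpgm and Fam46c held the CCAAT box only, and 7 of the 9 genes were matched in the RefSeq table. Among 32851 mouse promoter windows of the same length, the GATA core was found in 22.6%, the CACCC core in 52.0%, the CCAAT box in 33.8%, the TATA core in 22.8% and all 4 in 0.968%. A match describes the letters and is not a binding site.

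The levels are FPKM, read fragments per length of transcript and per total of mapped fragments in the library. Across the table they summed to between 301085 and 362004 per library, and the read depth is unknown. Libraries carry the numbers of the table's columns, which differ from those of the sample titles. Library 2 of the day 3 control group and library 2 of the day 14 control group stood at the top of their groups for all 9 genes, as did sham library 2. Sham library 4 was lowest of its group for 7 genes, and day 14 control library 4 for 8.

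Hbb-bs had the highest mean of the 9 genes in every group. Hbb-bs, the more abundant beta globin gene, was at 1397, 1541, 689 and 1453 FPKM in the 4 sham hearts and at 5845, 10307, 6199 and 8127 in the 4 day 3 control infarcts. With FGF17 at day 3 it was at 2495, 1992, 1808 and 3165 FPKM. At day 14 the control infarcts stood at 2383, 5318 and 1242 FPKM and the FGF17 infarcts at 1548, 1580.1 and 1375. The day 3 control libraries therefore lay above all 14 other libraries for Hbb-bs, and the day 14 control libraries spread widest.

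The other globin genes showed the same order of group means. Hbb-bt went from 229 to 529.7 FPKM in sham hearts, 1824 to 3136 in day 3 control infarcts and 649.7 to 1188 in day 3 FGF17 infarcts. Hba-a1 went from 389 to 816, from 2287 to 3563 and from 965 to 1392 FPKM in these 3 groups, and Hba-a2 from 450.2 to 1101, from 4882 to 8498 and from 1330.0 to 2146. The copies of each pair are alike: 86.9% of the 50-base stretches of the longest Hba-a2 transcript also occur in Hba-a1, and 65.8% of those of Hbb-bs in Hbb-bt. Reads can be shared between them, so the level of each copy is uncertain, and the sum of the 4 genes is given beside them. That sum was 3240.1 ± 1010.4 FPKM in sham hearts (SD, n = 4), 18750.3 ± 4830.3 in day 3 control infarcts (n = 4) and 6089 ± 1457 in day 3 FGF17 infarcts (n = 4). It was 7870.2 ± 5638 FPKM in day 14 control infarcts and 4053 ± 140.1 in day 14 FGF17 infarcts (SD, n = 3 each). As a share of all FPKM in the library, the 4 genes took 0.928% ± 0.285 in sham hearts, 5.59% ± 1.31 in day 3 control infarcts and 1.85% ± 0.478 in day 3 FGF17 infarcts (SD, n = 4 each).

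Alas2, the red cell form of 5-aminolevulinate synthase and the first enzyme of heme synthesis, followed the globins at a far lower level. It was at 16.0, 21.3, 7.32 and 18.3 FPKM in sham hearts and at 111, 214, 115 and 118 in day 3 control infarcts. In day 3 FGF17 infarcts it was at 34.0, 24.9, 24.1 and 48.5 FPKM. Day 3 FGF17 libraries thus lay above every sham library and below every day 3 control library. At day 14 the control infarcts read 29.7, 96.4 and 13.3 FPKM, a 7.23-fold spread between libraries 2 and 4, and the FGF17 infarcts read 17.7, 23.4 and 19.5.

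Slc4a1, the band 3 anion exchanger of the red cell membrane, was near the lower end of what the table lists. It was at 1.52, 3.05, 2.70 and 1.81 FPKM in day 3 control infarcts, and these 4 were its only libraries at 1 FPKM or more. It therefore entered the test through the group where it was high. Its range was 0.0766 to 0.276 FPKM in sham hearts and 0.0514 to 0.780 in day 3 FGF17 infarcts.

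Bpgm makes 2,3-bisphosphoglycerate, which lowers the oxygen affinity of hemoglobin. It was at 9.00, 12.9, 8.61 and 11.98 FPKM in sham hearts, at 41.3, 77.3, 44.5 and 45.8 in day 3 control infarcts and at 17.4, 12.4, 15.7 and 19.8 in day 3 FGF17 infarcts. The day 3 FGF17 libraries overlapped the sham libraries for Bpgm and lay below all day 3 control libraries. Fam46c was at 1.39, 1.52, 0.591 and 1.24 FPKM in sham hearts, at 8.43, 18.7, 10.3 and 10.4 in day 3 control infarcts and at 3.56, 2.62, 3.30 and 3.77 in day 3 FGF17 infarcts. These 3 groups did not overlap for Fam46c.

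Car2, carbonic anhydrase 2, is abundant in red cells but is also made by other tissues. It was at 3.78, 4.16, 3.79 and 3.36 FPKM in sham hearts, at 6.14, 10.8, 8.96 and 7.99 in day 3 control infarcts and at 3.40, 1.98, 3.40 and 2.80 in day 3 FGF17 infarcts. Car2 had its lowest group mean in the day 3 FGF17 hearts, where the other 8 genes had theirs in sham hearts.

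**Figure D1:**
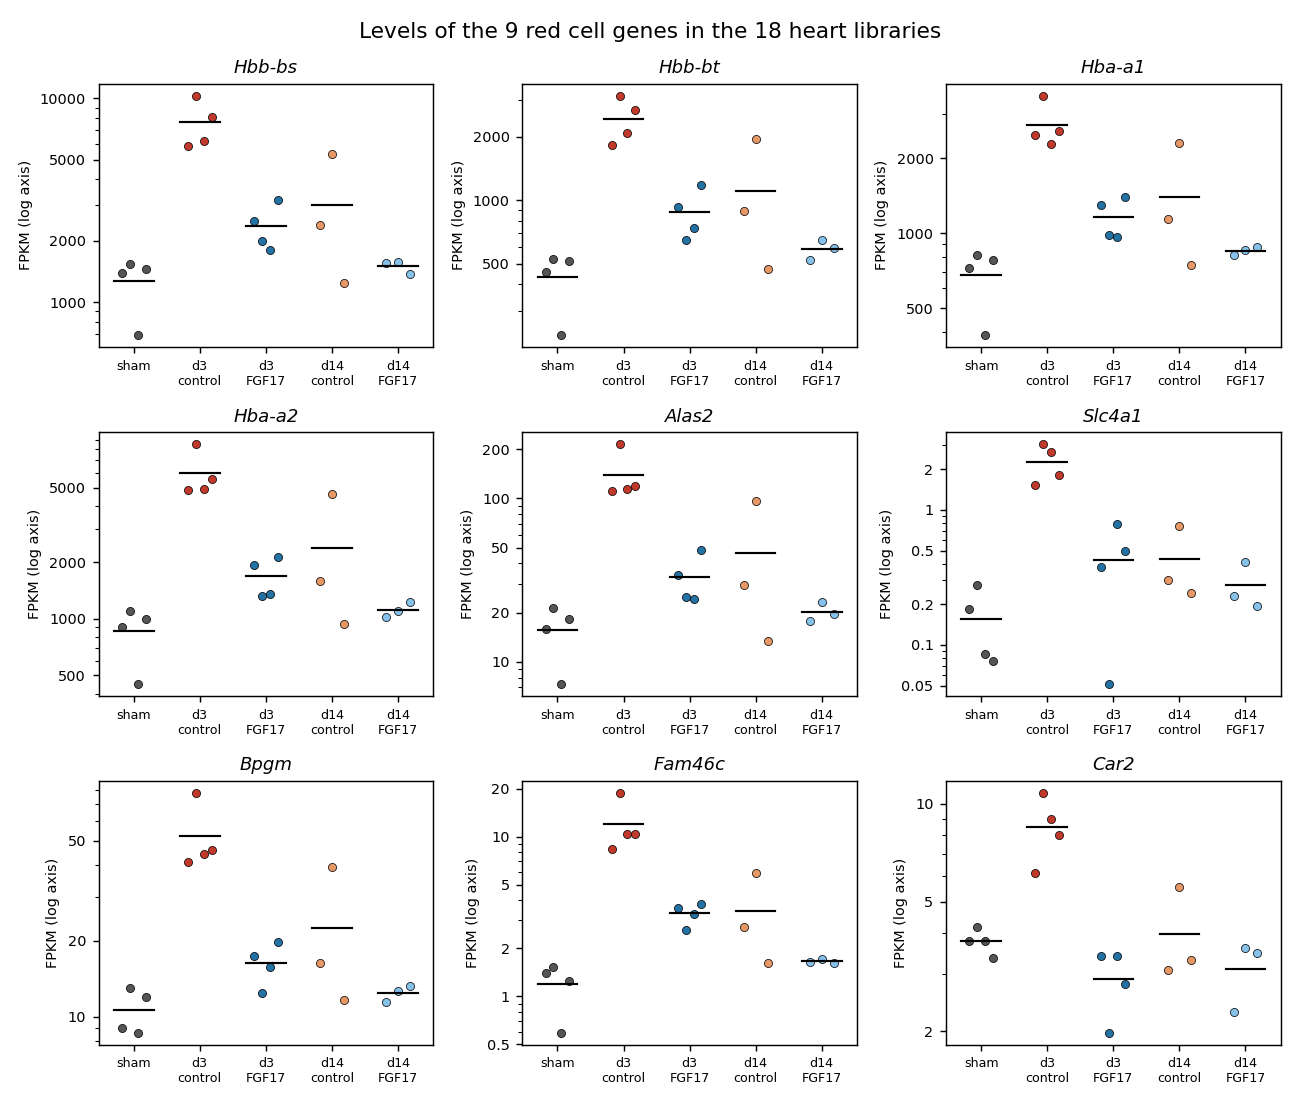
FPKM of each of the 9 genes (log axis) in the 5 groups, with 1 point per library and a line at the group mean. The 4 day 3 control libraries lie above the 4 sham and the 4 day 3 FGF17 libraries in every panel, and 1 day 14 control library stands far above the others of its group for Hbb-bs, Hba-a2 and Alas2.

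Day 3 control infarcts exceeded sham hearts with no overlap of libraries for 9 of 9 genes, against 42.1% of the 12052 genes with enough signal. The ratio of the group means was 10.1 for Fam46c, 8.88 for Alas2, 6.93 for Hba-a2, 6.0 for Hbb-bs, 5.63 for Hbb-bt, 4.91 for Bpgm, 4.02 for Hba-a1 and 2.24 for Car2. For Slc4a1 it was 14.5 over a sham mean of 0.156 FPKM, and with 0.5 FPKM added on the log2 scale the estimate was 4.14-fold, below those of Alas2 (8.88), Fam46c (7.26) and Hba-a2 (7.12). Since this rise was known when the genes were picked, nothing is read from the count. For 8 genes the order of group means was day 3 control, day 14 control, day 3 FGF17, day 14 FGF17 and sham. Neighbours in that order were often not apart: the day 14 control libraries overlapped the next group for all 9 genes, and the day 14 FGF17 libraries overlapped sham for 7 of those 8. In the control-vector hearts, day 14 libraries lay below day 3 libraries for 7 genes (21.3% of all genes tested), while Hbb-bt and Hba-a1 overlapped. At day 14, Fam46c alone was above sham with no overlap in the control-vector infarcts, where 43.3% of all genes were. Against sham, the day 3 FGF17 infarcts were higher without overlap for 6 genes (41.8% of all genes) and overlapped for Slc4a1, Bpgm and Car2. The day 14 FGF17 infarcts were above sham without overlap for Fam46c alone (32.6% of all genes).

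At day 3 the level of each of the 9 genes was lower in the FGF17 hearts than in the control-vector hearts, and Car2, Slc4a1, Bpgm and Fam46c were past the threshold. The comparison was made with limma on log2(FPKM + 0.5), and p-values were adjusted by Benjamini-Hochberg over 12052 genes. It uses the 4 control libraries in which the genes were known to be high, and picking genes that are high there favours lower values in any other group. The same picking can also enlarge the estimated difference. The values below therefore describe these libraries only. The direction, the size and the number of genes past the threshold are not independent support for an FGF17 effect. Car2 fell by 1.40 ± 0.19 on the log2 scale (SE, limma adjusted p = 0.00611), and the estimate for Slc4a1, which was tested only because its day 3 control libraries reached 1 FPKM, was -1.60 ± 0.24 (adjusted p = 0.00838). Bpgm fell by 1.62 ± 0.28 and Fam46c fell by 1.66 ± 0.28 (limma adjusted p = 0.0163 for both). Among all genes tested, 0.174% (21 genes) fell and 0.0581% (7 genes) rose at day 3, and nothing is read from the count of 4 against these shares.

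The 4 globin genes and Alas2 missed the threshold, with estimates on both sides of those of the other 4 genes. The log2 change was -2.07 ± 0.45 for Alas2 (limma adjusted p = 0.0681), -1.82 ± 0.37 for Hba-a2 and -1.68 ± 0.35 for Hbb-bs (adjusted p = 0.0540 for both). It was -1.48 ± 0.35 for Hbb-bt (limma adjusted p = 0.0986) and -1.23 ± 0.28 for Hba-a1 (adjusted p = 0.0853). Each of the 9 genes was lower in all 4 FGF17 libraries than in any control library at day 3, which held for 3.84% of all genes tested, and for the same reason nothing is read from this count. The median over the 9 genes was -1.62 log2, beside -0.026 over all genes tested. As ratios of group means, control over FGF17 came to 4.24 for Alas2, 3.22 for Hbb-bs and 2.35 for Hba-a1.

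The number of the 9 genes past the threshold at day 3 moved with single libraries, and the direction, which the picking of the genes favours, did not. It was 2 without library 2 or library 4 of the day 3 control group or library 3 of the day 3 FGF17 group. It was 8 without sham library 4 and 9 without library 2 or library 4 of the day 14 control group, which enter only through the shared spread. A fit on the day 3 groups alone also gave 8. Across 31 alternative settings the log2 change of Alas2 lay between -2.27 and -1.85 with adjusted p from 0.00813 to 0.216, and that of Car2 between -1.55 and -1.26 with adjusted p from 0.00112 to 0.0332. Every estimate was negative in each alternative in which the gene was tested (30 for Slc4a1 and 31 for each of the others). Picking the genes favours this sign, so nothing is read from it.

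**Figure D2:**
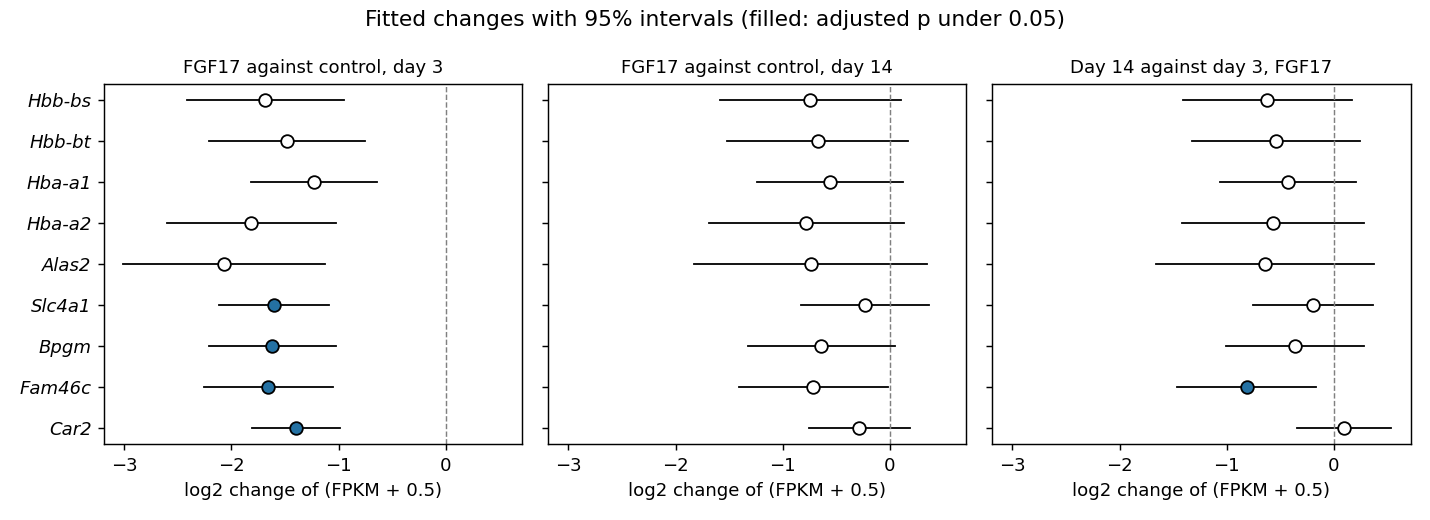
Estimated log2 change of (FPKM + 0.5) with its 95% interval for each gene in the 3 tested comparisons, with filled points where the limma adjusted p was under 0.05. At day 3 all 9 intervals lie below 0 and 4 points are filled, whereas at day 14 the intervals of 8 genes cross 0.

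At day 14 none of the 9 genes passed the limma test between FGF17 and control-vector infarcts, and 1 (Fam46c) had an unadjusted p under 0.05. Of all genes tested, 5.98% fell and 3.63% rose at this day. Earlier results on these control libraries were known when the genes were picked, so the direction and size of the estimates are not independent support for an FGF17 effect. Hbb-bs changed by -0.74 ± 0.40 log2 (limma adjusted p = 0.246), and Alas2 changed by -0.74 ± 0.51 with a 95% interval from -1.82 to 0.35 (adjusted p = 0.380). Fam46c changed by -0.71 ± 0.33 (limma adjusted p = 0.175) and Car2 by -0.29 ± 0.22 (adjusted p = 0.443). The libraries of the day 14 groups overlapped for all 9 genes. Fam46c was at 2.72, 5.97 and 1.62 FPKM with the control vector and at 1.63, 1.72 and 1.61 with FGF17, so the control libraries spread and the FGF17 libraries did not. The summed globins differed 4.17-fold between the highest and the lowest control library and 1.07-fold among the FGF17 libraries.

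Single control libraries decided the day 14 estimates. Without control library 4, the lowest, 5 of the 9 genes passed the limma threshold (Hbb-bs, Hbb-bt, Hba-a2, Bpgm and Fam46c, all lower with FGF17). Without control library 2, the highest, none passed, and the estimates for Alas2 and Slc4a1 came to 0.0099 and 0.0081 log2. The adjusted p over the alternatives ran from 0.0335 to 0.771 for Hbb-bs and from 0.0578 to 0.993 for Alas2.

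The FGF17 change was closer to 0 at day 14 than at day 3 for all 9 genes, but no difference between the days passed the limma test. Of all genes tested, 0.108% had a higher and 0.257% a lower FGF17 effect at day 14. This comparison also holds the control libraries of both days, for which earlier results were known when the genes were picked. The difference in log2 change, day 14 minus day 3, was 1.37 ± 0.37 for Slc4a1 (limma adjusted p = 0.111), 1.11 ± 0.30 for Car2 (adjusted p = 0.104) and 1.33 ± 0.68 for Alas2 (adjusted p = 0.395). Slc4a1, Car2, Bpgm and Fam46c had an unadjusted p under 0.05. An effect past the threshold at day 3 and not at day 14 is therefore not shown to differ between the days.

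Within FGF17 hearts, 1 of the 9 genes fell from day 3 to day 14, where 22.5% of all genes fell and 16.2% rose. The means compared hold no control-vector library. The spread of each gene is taken from all groups, so the control-vector libraries still enter the SE and p-values. With only the compared groups in the fit, 4 genes were past the threshold. Slc4a1 was tested here only through its day 3 control libraries. Fam46c fell by 0.81 ± 0.31 on the log2 scale (limma adjusted p = 0.0455, range 0.00167 to 0.104 over the alternatives). It was past the threshold in 15 of 31 alternatives. Hbb-bs changed by -0.62 ± 0.37 (limma adjusted p = 0.201), Alas2 by -0.64 ± 0.48 (adjusted p = 0.312) and Car2 by 0.09 ± 0.21 (adjusted p = 0.752). Hbb-bs, Hba-a1, Hba-a2, Alas2 and Fam46c were lower in all 3 day 14 libraries than in all 4 day 3 libraries, which held for 24.8% of all genes tested.

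Ratios taken within a library do not depend on the scaling between libraries. Summed beta over summed alpha globin was 1.11 ± 0.0266 in sham hearts, 1.16 ± 0.123 in day 3 control infarcts and 1.13 ± 0.0719 in day 3 FGF17 infarcts (SD, n = 4 each), with all 18 libraries between 0.936 and 1.33. Between FGF17 and control at day 3 the mean log2 ratio differed by -0.028 (exact two-sided permutation p = 0.771, adjusted p = 0.9 over the 6 ratio tests), and its sign changed in 2 of 9 alternatives. The beta to alpha balance thus stayed within a narrow band while the globin sum varied 5.79-fold between the means of sham and day 3 control hearts.

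Alas2 relative to the globins was not at such a fixed level. It was at 4.60, 5.35, 4.16 and 4.88 FPKM per 1000 FPKM of globin in sham hearts and at 7.41, 8.38, 7.39 and 6.25 in day 3 control infarcts. With FGF17 at day 3 it was at 5.11, 5.03, 4.96 and 6.15, below all 4 control libraries. The ratio was 0.723-fold as high with FGF17 at day 3 (log2 difference -0.47, exact two-sided permutation p = 0.0286, the smallest that 4 against 4 libraries can give). Adjusted over the 6 ratio tests, p was 0.171. With so few libraries no ratio test could come under 0.05 after this adjustment, so nothing is read from its not passing. The ratio was lower in 4 of 4 FGF17 libraries. The control libraries compared are those in which these genes were known to be high when picked. Neither the direction nor the p-value is therefore independent support for an FGF17 effect. The log2 difference lay between -1.27 and -0.40 over 10 alternatives, and the -1.27 came from a different ratio, with Slc4a1 in place of Alas2. At day 14 the difference was -0.037 (exact permutation p = 0.9, and 3 against 3 libraries cannot go below 0.1). Its sign changed in 3 of 8 alternatives, the run with Slc4a1 in place of Alas2 among them. Within FGF17 hearts the day 14 ratio differed from day 3 by -0.095 log2 for Alas2 and by -0.089 for beta over alpha (exact permutation p = 0.514 for both, where the smallest possible is 0.0571).

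Further ratios are given as values with no test. Fam46c per 1000 FPKM of globin averaged 0.363 ± 0.0341 in sham hearts, 0.627 ± 0.0887 in day 3 control infarcts and 0.555 ± 0.0861 in day 3 FGF17 infarcts. Hba-a2 over Hba-a1 averaged 1.26 ± 0.0798, 2.18 ± 0.166 and 1.45 ± 0.0858 in these groups, and every day 3 control library was above every sham and every day 3 FGF17 library. Hbb-bt over Hbb-bs averaged 0.339 ± 0.0129, 0.321 ± 0.0157 and 0.371 ± 0.0333 (SD, n = 4 each throughout). The copies of each pair share sequence, so how reads were divided between them enters these last ratios, and its part was not tested.

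**Figure D3:**
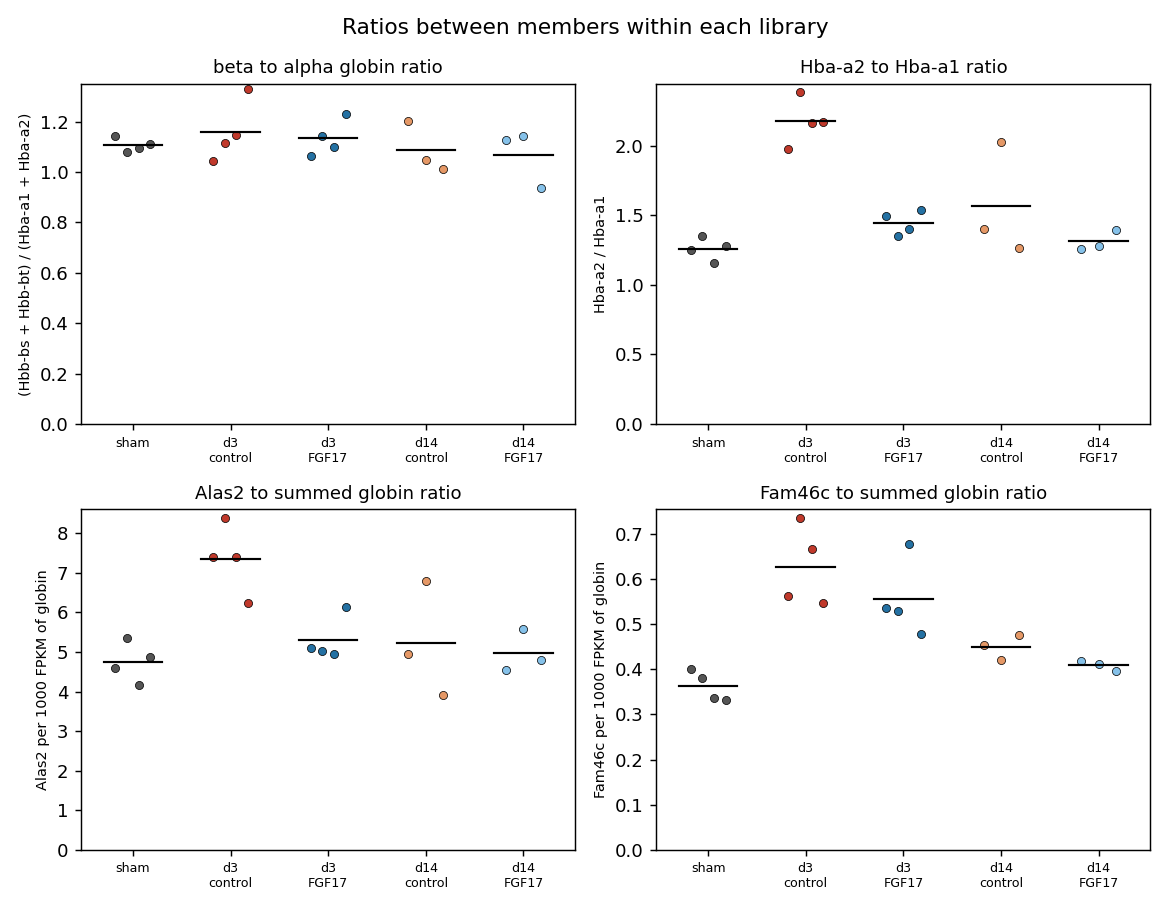
The 4 ratios between the genes within each library, in the 5 groups, with 1 point per library and a line at the group mean (linear axes from 0). Beta over alpha globin stays between 0.936 and 1.33 in all libraries, while Hba-a2 over Hba-a1 and Alas2 per 1000 FPKM of globin are highest in the day 3 control infarcts.

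Other red cell genes, from lists drawn up for the pathway, were compared in the same fit. With FGF17 at day 3, 0.174% of all genes tested fell and 0.0581% rose. Shares this low give few calls in any short list, so nothing is read from the list counts. Of the 7 tested genes of the red cell membrane that are reported here, none passed with FGF17 at day 3, with a median of -0.08 log2. Ank1, ankyrin of the membrane skeleton, which other tissues also use, changed by -0.08 ± 0.15 log2 (limma adjusted p = 0.952). Of the 14 tested late erythroid genes reported here 1 fell, Trim10, from 2.12 ± 0.784 to 0.217 ± 0.107 FPKM (SD, n = 4 each; log2 change -1.83 ± 0.27, limma adjusted p = 0.00838). Trim10 was at 1 FPKM or more in 5 libraries, the 4 day 3 control libraries and day 14 control library 2, so it too entered the test through the group where it was high.

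Mkrn1, a makorin ring finger gene of the late erythroid list, missed the threshold at day 3. It was at 19.96, 34.0, 22.0 and 25.7 FPKM with the control vector and at 12.2, 10.4, 13.8 and 13.2 with FGF17, so the 4 FGF17 libraries lay below the 4 control libraries. Its log2 change was -0.98 ± 0.21 (limma adjusted p = 0.0681). The median of the 14 genes was -0.26 log2, beside -0.026 for all genes.

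Of the heme synthesis genes other than Alas2, none of 15 tested passed at day 3 between FGF17 and control. Their median change was -0.03 log2, and their summed level was 225 ± 9.66 FPKM in control and 217 ± 5.45 in FGF17 infarcts (SD, n = 4 each). In this comparison 0.174% of all genes tested fell and 0.0581% rose, so nothing is read from a list without calls. Fech, ferrochelatase, the last enzyme of the pathway, changed by -0.29 ± 0.08 log2 (limma adjusted p = 0.240). Most of these genes serve every cell with mitochondria. Of the erythroid transcription factor list, Gata1 and Klf1 were not analysed here, and none of the 4 tested (Ldb1, Lmo2, Zfpm1 and Tal1) passed at day 3. Lmo2 changed by -1.11 ± 0.29 log2 (limma adjusted p = 0.150).

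Globins of other cells and minor globins were measured too. Mb (myoglobin of muscle) and Cygb (cytoglobin) did not pass at day 3 with FGF17 and rose from day 3 to day 14 in FGF17 hearts, by 0.58 ± 0.09 and 0.70 ± 0.14 log2 (limma adjusted p = 1.25e-04 and 0.00110). Hbq1b, a theta globin gene of the alpha cluster, was at 1.84, 1.94, 1.73 and 1.28 FPKM in day 3 control infarcts, the only 4 libraries in which it reached 1 FPKM, and at 0.942, 0, 0.185 and 0.582 with FGF17. Of 10 genes that clear hemoglobin, heme or iron, none passed at day 3 between FGF17 and control. Over all genes tested, 0.174% fell and 0.0581% rose in that comparison. Hmox1, heme oxygenase 1, changed by 0.09 ± 0.18 log2 at day 3 (limma adjusted p = 0.954) and fell by 3.80 ± 0.19 from day 3 to day 14 in FGF17 hearts (adjusted p = 3.85e-10), where 4 of these 10 genes fell and none rose, beside 22.5% and 16.2% of all genes tested.

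At day 14 a few list genes passed between FGF17 and control while none of the 9 did. Of all genes tested, 3.63% rose and 5.98% fell in this comparison. Sptb rose by 0.63 ± 0.19 and Ank1 rose by 0.74 ± 0.18 log2, and the water channel gene Aqp1 fell by 0.56 ± 0.14 (limma adjusted p = 0.0499, 0.0181 and 0.0201). In the late erythroid list the transferrin receptor gene Tfrc fell by 1.15 ± 0.23 log2 and Cat, catalase, rose by 0.44 ± 0.12 (limma adjusted p = 0.00690 and 0.0297). Of 15 heme synthesis genes 1 rose, Slc25a39, by 0.53 ± 0.15 log2 (limma adjusted p = 0.0325). Of the 10 genes that clear hemoglobin, heme or iron, 1 rose. From day 3 to day 14 in FGF17 hearts, 6 of the 15 heme synthesis genes rose and 1 fell, and 4 of the 7 membrane genes rose, where 16.2% of all genes tested rose and 22.5% fell.

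Alas2 was also compared with every gene tested for likeness of its log2 levels over the 18 libraries, as a description with no test. The libraries share groups, so the differences between groups enter each correlation. Among the 9 genes, Pearson's r with Alas2 was 0.995 for Hba-a2, 0.994 for Hbb-bs, 0.992 for Hba-a1, 0.989 for Hbb-bt, 0.981 for Bpgm, 0.978 for Fam46c, 0.903 for Slc4a1 and 0.785 for Car2. Of the 10 other genes most like it, those reported here were Mkrn1 at 0.956, Apol11b at 0.928, Cd24a at 0.916 and Isg20 at 0.905, followed by Trim10, Hbq1b, Camk1d and Specc1 between 0.868 and 0.899.

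With the group means taken out, the likeness of the globins to Alas2 remained and that of Car2 and Slc4a1 was lower. Over the deviations from the group means in the 18 libraries, r was 0.984 for Hba-a2, 0.981 for Hba-a1, 0.976 for Hbb-bs, 0.973 for Hbb-bt, 0.942 for Fam46c and 0.928 for Bpgm. It was 0.562 for Slc4a1 and 0.553 for Car2. Of the 10 other genes most like it, those reported here were Tax1bp1 at 0.870 and Mkrn1 at 0.823, and Cenpi, Pls3, Kif11, Cd24a, Myo5a, Pitpnb and Ube2o lay between 0.762 and 0.820.

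Markers of other cells that travel in blood were measured in the same libraries. Platelet markers (7 genes, led by Pf4 and Ppbp) summed to 24.4 to 66.3 FPKM in sham hearts, 201 to 214 in day 3 control infarcts and 181 to 222 in day 3 FGF17 infarcts. Pf4 made up most of that sum, at 168 ± 10.5 FPKM in day 3 control and 156 ± 8.35 in day 3 FGF17 infarcts (SD, n = 4 each). At day 3 with the control vector, Pf4 and Ppbp alone of the 7 were above sham without overlap, where 42.1% of all genes tested were. Neutrophil markers (9 genes, led by S100a9 and S100a8) summed to 8.15 to 32.9, 189 to 361 and 89.8 to 411 FPKM in these groups. None of the 7 platelet and none of the 9 neutrophil genes passed between FGF17 and control at day 3, where 0.174% of all genes tested fell and 0.0581% rose. Both sums overlapped between those groups. The 9 red cell genes did not overlap, but they were picked as high in the day 3 control libraries, so nothing is read from this contrast. Whether the platelet and neutrophil sums differ from the red cell genes in their response to FGF17 was not tested. The B cell sum was 3.74 to 12.7 FPKM in day 3 control and 2.19 to 5.68 in day 3 FGF17 infarcts, and the T and NK cell sum was 3.59 to 6.41 and 4.25 to 8.02. No B, T or NK cell marker passed at day 3 (2 and 3 genes tested).

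Tissue markers shifted with the groups as well. The macrophage sum (9 genes, led by Lyz2) was 1391 to 1661 FPKM in day 3 control and 1049 to 1359 in day 3 FGF17 infarcts, with no overlap. Of the 9 genes 0 passed the limma test, where 0.174% of all genes tested fell and 0.0581% rose. Lower with no overlap were 3 of the 9, beside 3.84% of all genes tested. The cardiomyocyte sum (6 genes, led by Actc1 and Myh6) was 4302 to 5609.7 FPKM in control and 5011 to 5861 in FGF17 infarcts at day 3, and the endothelial sum (5 genes, led by Cdh5) was 177 to 195 and 166 to 192. The part of these shifts in the red cell values was not tested.

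**Figure D4:**
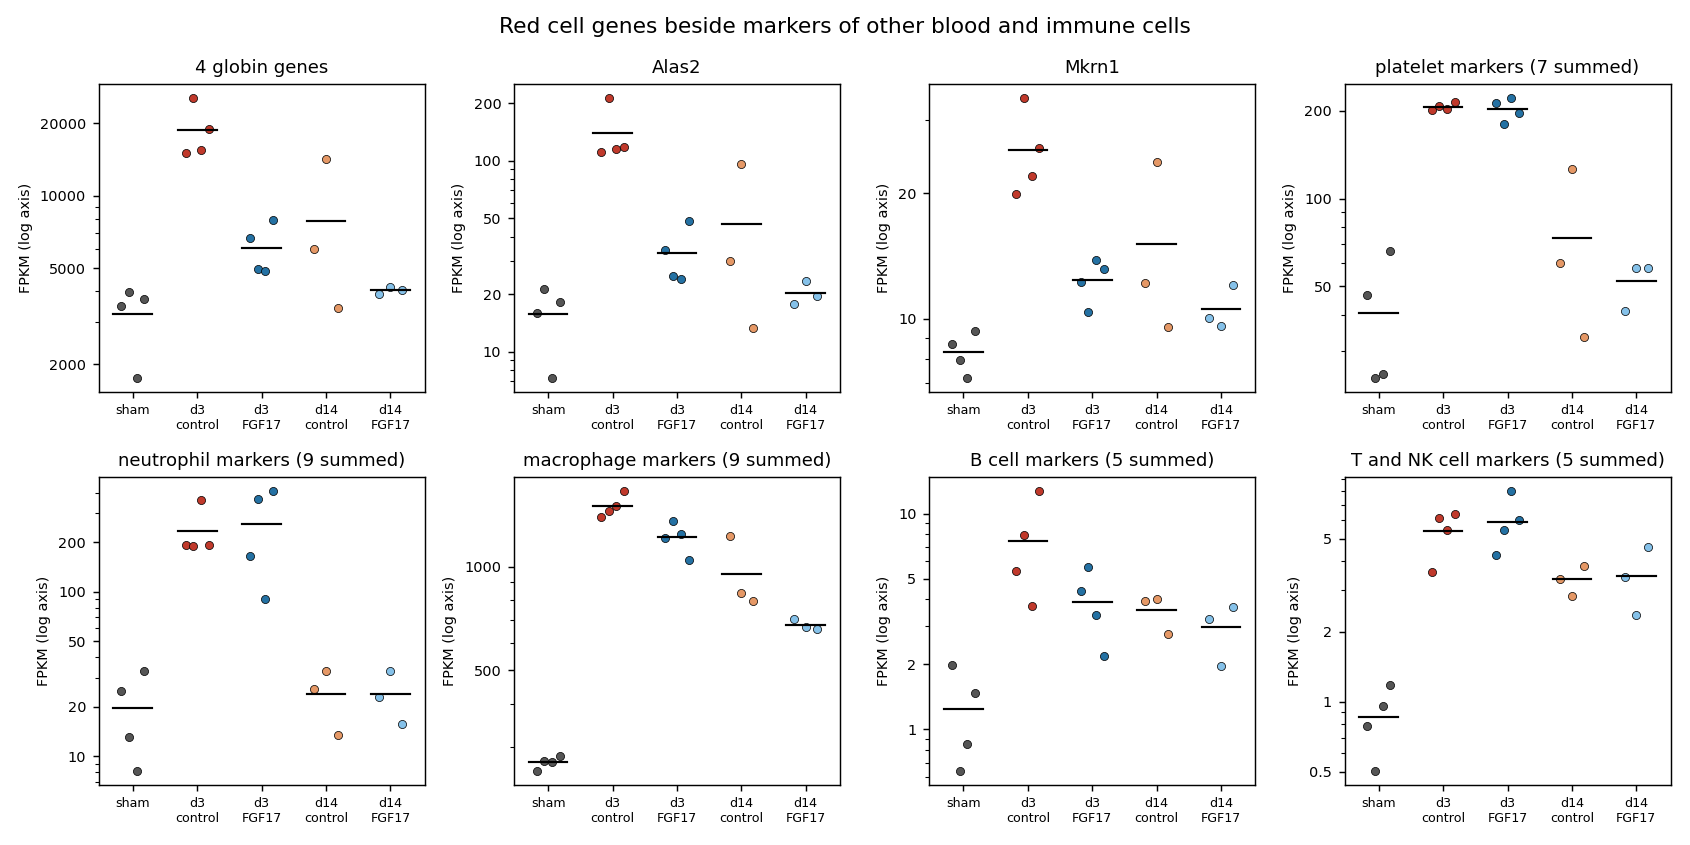
Summed FPKM of the 4 globin genes, FPKM of Alas2 and Mkrn1, and summed FPKM of platelet, neutrophil, macrophage, B cell and T and NK cell markers (log axes) in the 5 groups, with 1 point per library and a line at the group mean. The day 3 control and FGF17 libraries are apart for the globins, Alas2, Mkrn1 and the macrophage sum. They overlap for the platelet, neutrophil, B cell and T and NK cell sums.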

How the data were processed

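Heart RNA was sequenced in 18 libraries. Per the submitters' processing notes, reads were checked with FastQC 0.11.7, trimmed with cutadapt 1.17, aligned with HISAT2 2.1.0 and quantified with StringTie 1.3.3, with the GRCm38 build named, and the annotation is not given in the sources used here. The authors deposited FPKM values per gene, so read depth and counting error are unknown and no count test was used. FPKM does not correct for abundant messages, such as globins, taking a larger share of a library. Columns were assigned to groups by name.

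From these values, log2(FPKM + 0.5) was fitted with limma 3.58.1 (R 4.3.3; 5 group means, trend in the prior variance) over 12052 genes at 1 FPKM or more in at least 3 libraries. P-values were adjusted by Benjamini-Hochberg within each of 4 contrasts, with a threshold of 0.05 and two-sided tests. The 9 genes, the lists and the tests were chosen with earlier results of these data known. Named besides the 9 genes are those most like Alas2, the 4 most abundant genes of a list and called genes of the red cell lists. Ratios were tested by exact permutation. The code was tested on simulated data. Scaling, pseudocount, filter, samples in the fit, a replicate block and leaving out libraries were varied. Some genes of the lists and of the likeness ranking are not reported here, and list counts and medians leave them out.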

Additional observations from a re-analysis of the deposited data

Results flagged for a closer look

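In groups of 4 libraries, 36 sets of values were examined for a library far from the rest of its group, and 4 had one. Chance gives about 1 in 20 for independent sets. These sets share libraries and most of the genes move together, so whether 4 is an excess cannot be judged. The low one was sham library 4 for Hbb-bs, at 689 FPKM beside 1397 to 1541 in the other sham libraries. It was also the lowest sham library for 7 of the 9 genes. Day 3 control library 2 stood high for Alas2, at 214 FPKM beside 111 to 118, and for Bpgm, at 77.3 FPKM beside 41.3 to 45.8. Without that library the day 3 log2 change with FGF17 was -1.85 for Alas2 and -1.42 for Bpgm. Day 3 FGF17 library 4 had 6.15 FPKM of Alas2 per 1000 FPKM of globin, beside 4.96 to 5.11 in the other libraries of its group.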

How the results depend on the processing

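The day 3 count of 4 genes past the limma threshold lay between 2 and 9 when single libraries were left out. It was 8 in a fit on the compared groups alone, 2 with a pseudocount of 0.01 and 7 without library 2 of both MI control groups, the last 2 chosen after seeing the data. It stayed within 1.5 times of 4 in the other 10 alternatives. The day 14 count of 0 lay between 0 and 5 when single libraries were left out and was 0 in the other 13 alternatives. The count of 1 from day 3 to day 14 in FGF17 hearts lay between 0 and 1 when single libraries were left out. It was 0 with a pseudocount of 1, median-of-ratios scaling, a common total of 1000000, scaling without globins or a replicate block, and 4 with only the compared groups. The count of 0 for the difference between days was 0 throughout. No call changed sign. The 6 ratio tests kept adjusted p-values above the threshold in every alternative, but with these group sizes none could have passed it. The cause of these moves was not tested.

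Over all genes tested, r between the deviations of same-numbered libraries ran from -0.155 to 0.367 over 29 pairs. Of these, 6 pairs were over 0.1, and 6 of 18 libraries matched their own number best. Values for differently numbered pairs are not given, so whether same-numbered libraries deviate together was not tested. For the 9 genes alone, library 2 stood highest in the sham group and both control-vector infarct groups. In the day 3 FGF17 group library 2 was lowest for 6 of the 9. The replicate block left the day 3 count at 4 and the day 14 count at 0. Read depth is unknown, so counting error cannot be given for low genes such as Slc4a1, which was under 1 FPKM outside the day 3 control group.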
